A study of Drosophila melanogaster with 2 samples.

Results

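The sites described here are peaks of the tagged Drosophila melanogaster protein CG32767 that lay in intergenic DNA, away from any promoter. A peak of the authors' conservative list was a member when its summit, the base that the list marks as its highest, lay more than 2000 bp from every annotated transcription start site (TSS) and outside every gene. Genes and TSSs came from the Ensembl BDGP6 annotation, with transposable elements left out. There were 252 members among 3531 peaks on the chromosome arms, or 7.14% (95% exact Clopper-Pearson interval 6.31 to 8.04%). The other summits comprised 696 that were as far from a TSS but inside a gene (distal genic), 795 between 500 and 2000 bp from a TSS, and 1788 within 500 bp of one. The choice used position alone and no signal. The samples were whole embryos of 0 to 24 hours from 1 transgenic strain whose flies carried a CG32767-eGFP transgene, a fusion with enhanced green fluorescent protein, and chromatin was precipitated with an antibody against GFP. They formed 1 group of 2 biological replicates with 1 library each, with no second genotype or treatment and no control library analysed here, so no difference between groups could be tested. All tissues of the embryo were pooled, and a site used in few cells cannot be told apart from one that is weakly occupied in many. Read counts are not part of the peak lists, and library depth is therefore unknown.

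Chromatin immunoprecipitation followed by sequencing finds DNA fragments held by a protein, and fragments pile up as a peak over each place of contact. Intergenic DNA at a distance from promoters holds many enhancers, short stretches where transcription factors gather and from which a promoter elsewhere on the chromosome is controlled. An enhancer works in either orientation and can pass over nearer genes, so the nearest TSS, given below to name a site, need not belong to the gene that a site serves. In Drosophila, genes for developmental transcription factors are often flanked by long intergenic stretches with several enhancers each.

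The strongest members had summits in AT-rich DNA. The windows below span 101 bp centred on the summit, on the plus strand of dm6 from RefSeq, and each is named by its nearest gene. They belong to the 5 strongest members outside 1 chromosome arm from which no sequence is shown. Capitals mark the longest run of A and T alone, or the first such run where several tie.
CG31668, chr2L:2202352-2202452: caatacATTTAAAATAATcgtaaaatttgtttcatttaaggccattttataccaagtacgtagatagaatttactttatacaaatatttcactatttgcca
lncRNA:CR45695, chr2L:1638735-1638835: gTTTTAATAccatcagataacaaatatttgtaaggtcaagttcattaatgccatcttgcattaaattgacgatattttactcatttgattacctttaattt
lncRNA:CR45695, chr2L:1643386-1643486: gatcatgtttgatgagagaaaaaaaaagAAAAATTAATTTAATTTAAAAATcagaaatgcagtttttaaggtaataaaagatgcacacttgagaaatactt
CG7560, chr3L:11418417-11418517: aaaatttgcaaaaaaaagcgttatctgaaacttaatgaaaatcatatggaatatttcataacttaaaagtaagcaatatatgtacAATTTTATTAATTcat
lncRNA:CR44603, chr2L:1632803-1632903: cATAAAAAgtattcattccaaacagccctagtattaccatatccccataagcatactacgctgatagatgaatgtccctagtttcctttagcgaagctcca
The window of the CG31668 site had 23.8% GC and that of the CG7560 site 19.8%, while the window of the lncRNA:CR44603 site had 39.6%. The next 4 windows were chosen after their values were seen, for the ratio between the replicates, with the same use of capitals. At the CG43245 and CG17570 sites the signal was higher in replicate 1, and at the lncRNA:CR45742 and croc sites it was higher in replicate 2.
CG43245, chr3L:10738868-10738968: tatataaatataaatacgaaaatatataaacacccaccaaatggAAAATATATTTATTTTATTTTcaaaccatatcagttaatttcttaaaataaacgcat
CG17570, chr2L:20267321-20267421: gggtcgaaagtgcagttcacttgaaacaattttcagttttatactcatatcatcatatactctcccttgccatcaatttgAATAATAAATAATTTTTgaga
lncRNA:CR45742, chr3L:5329692-5329792: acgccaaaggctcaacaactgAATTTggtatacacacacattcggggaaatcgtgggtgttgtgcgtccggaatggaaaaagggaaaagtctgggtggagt
croc, chr3L:21479812-21479912: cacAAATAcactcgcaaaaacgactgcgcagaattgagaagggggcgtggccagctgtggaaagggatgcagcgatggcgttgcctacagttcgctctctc
These windows had 18.8% and 30.7% GC at the CG43245 and CG17570 sites, and 48.5% and 55.4% at the lncRNA:CR45742 and croc sites. In the last 3 windows capitals mark the word ATACAGA or its reverse complement TCTGTAT. At summits outside the distal intergenic class, it led 7-letter words in the ratio of summit windows to windows 500 bp to either side.
CG46467,Glut4EF, chr3R:9872497-9872597: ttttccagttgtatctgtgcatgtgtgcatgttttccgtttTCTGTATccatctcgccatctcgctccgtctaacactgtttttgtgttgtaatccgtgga
lncRNA:CR44606, chr2L:20950830-20950930: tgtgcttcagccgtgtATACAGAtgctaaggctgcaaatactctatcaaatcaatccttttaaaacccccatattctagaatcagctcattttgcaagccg
lncRNA:CR44723, chr3L:11329113-11329213: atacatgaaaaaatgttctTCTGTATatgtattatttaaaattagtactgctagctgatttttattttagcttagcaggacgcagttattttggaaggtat

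The signal that the authors deposited for a peak has the scale of their peak caller and ranks peaks within 1 list. The median member was weaker than the median summit of each other class. Their median signal was 91.5, with quartiles of 76.3 and 130 and a range of 2.36 to 1014. The medians were 97.9 for distal genic summits, 104 for summits 500 to 2000 bp from a TSS and 111 for summits within 500 bp of one. The quartile ranges of the 4 classes overlapped widely. On a scale from 0 for the weakest peak to 100 for the strongest, the median member stood at 38.8, against 44.7 for distal genic and 54.0 for promoter summits. The top 500 peaks held 20 members, which is 7.94% of members, against 14.2% of all peaks. They held 7.33% of distal genic summits and 17.8% of summits within 500 bp of a TSS. The top 100 held 4 members (1.59%, against 0.718% of distal genic summits and 2.83% of all peaks). The top 20 held 1 (0.397%, against 0.566% of all peaks).

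**Figure D1:**
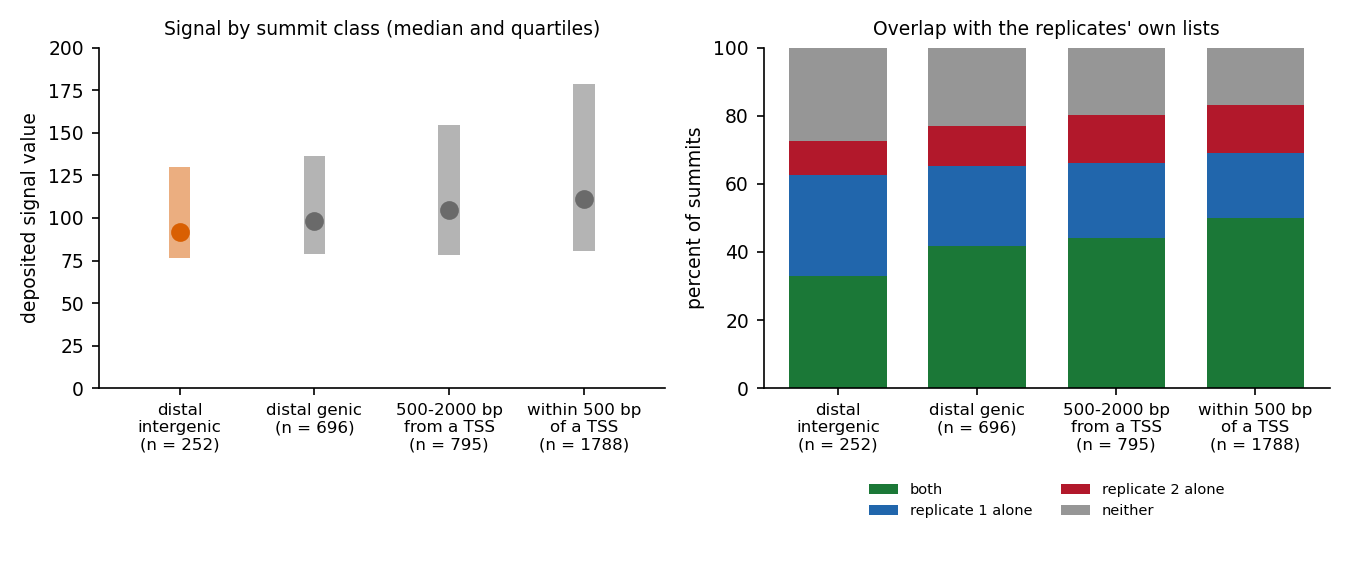
The left panel gives the deposited signal of each summit class, with a point at the median and a bar over the quartiles. The right panel gives the percent of each class that overlapped a peak in the thresholded list of both replicates, of 1 replicate or of neither; the share in both was 32.9% for distal intergenic, 41.7% for distal genic and 50% for promoter summits.

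Each replicate also has its own list of peaks that passed the authors' threshold on the irreproducible discovery rate (IDR), a measure of how well ranks hold between sets of peaks. A member counted as present in a list when a peak there overlapped it by at least 1 bp. Neighbouring members could therefore count through the same peak of a list. Of the members, 158 were in the list of replicate 1 (62.7%, against 67.3% of all 3531 peaks) and 108 in that of replicate 2 (42.9%, against 59% of all peaks). Both lists held 83 members, or 32.9% (interval 27.2 to 39.1%), against 45.8% of all peaks. Replicate 1 alone held 75 members (29.8%), against 21.5% of all peaks. Replicate 2 alone held 25 members (9.92%), against 13.2% of all peaks. A further 69 members (27.4%) were in neither list, against 19.6% of all peaks, so that the conservative list, built from both replicates together, was the only thresholded source of them among these 3 lists. The authors' longer series-level list held 233 members (92.5%), against 93.5% of all peaks.

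Before the threshold, nearly every peak of the conservative list had a counterpart in both replicates, and members were alike in this. The conservative list was itself built from both replicates, and there were 93099 candidates in replicate 1 and 82441 in replicate 2. Such counterparts were thus likely beforehand and are no measure of agreement. In the ranked candidate lists, which hold peaks before the threshold, 252 members overlapped a candidate of replicate 1 and 251 one of replicate 2, against 3508 and 3511 of all 3531 peaks. The exception was a member 2418 bp from the long non-coding RNA gene lncRNA:CR44313, with a signal of 64.8 and of 33.4 in replicate 1. Candidates were wide enough that 34 members shared one with another member in replicate 1, and 36 did so in replicate 2. The median candidate signal was 51.3 in replicate 1 and 44.5 in replicate 2, and replicate 1 was higher at 173 of the 251, against 2204 of 3488 over all peaks. Across these 251 sites, which share the same 2 libraries, Pearson's r of the log2 signals was 0.69 and Spearman's rho of the signals was 0.48. The signals come from separate lists, so their ratio at 1 site carries the scale of each list as well as the site.

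**Figure D2:**
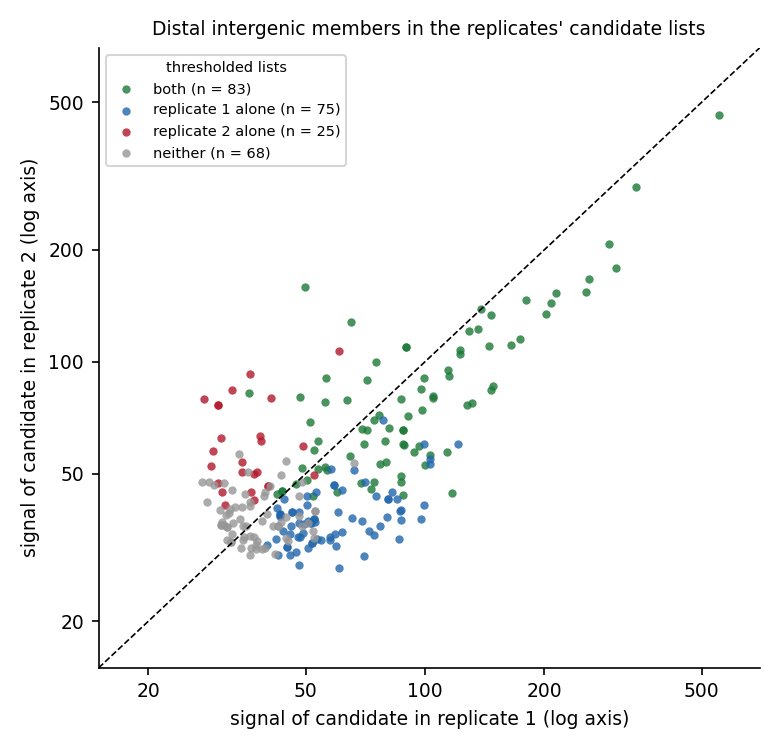
Each point is 1 of 251 members, with the signal of its strongest overlapping candidate in replicate 1 on the x axis and in replicate 2 on the y axis, both log axes in peak caller units; the dashed line marks equal signals and colours give the thresholded lists that hold the member. The strongest members lay below the line, and members in neither list gathered at the low end of both axes.

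The strongest members were present in both replicates. All 12 of the strongest were in both lists, with signals of 280.6 to 1014, and replicate 1 had the higher signal in each. The first stood 11914 bp from CG13323, in an intergenic interval of 36783 bp between CG13323 and Su(z)2, a Polycomb group gene. The peak, at chr2R:13035177-13035494, had a signal of 1014 and rank 9 in the whole list, with 553.8 in replicate 1 and 460.4 in replicate 2. The eighth lay 4713 bp from CG13321, between that gene and Psc, a Polycomb group gene that encodes a subunit of Polycomb repressive complex 1. It had a signal of 350.3, with 207.5 in replicate 1 and 144.3 in replicate 2. The second, at chr2L:2202257-2202546 between COX7AL2 and CG31668, had a signal of 634.4, with 340.7 in replicate 1 and 295.3 in replicate 2. The third, at chr2R:22802831-22803113, was 3312 bp from CycB, the gene of the mitotic cyclin B, on the side towards blw. Its signal was 505.9, with 290.7 in replicate 1 and 207.9 in replicate 2. The tenth, at chr3R:14053496-14053702, lay 3367 bp from foxo, which encodes a forkhead factor of the insulin pathway, and had 318.4, with 180.0 in replicate 1 and 146.7 in replicate 2. The ratio of the replicates was smallest at the twelfth, 12830 bp from CG5103, with 138.8 in replicate 1 and 138.2 in replicate 2. The others were 3 members between the coding genes RFeSP and chinmo and 1 member each near CG7560, CG43245 and CG7320.

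Some intergenic intervals held several members. Intervals ran between neighbouring gene spans of any kind, non-coding RNA genes included. Of 3142 intervals with any sequence that could hold a member, 172 held at least 1, and 126 of these held exactly 1. There were 17 intervals with 3 or more, and they held 68 of the 252 members. The interval of 75047 bp between NijA and CG43245 held 8, with signals of 118.1, 101.2, 139.6, 187.2, 20.1, 65.1, 338.0 and 140.9 from its left to its right end. These 8 differed widely, and 3 of them were in both replicate lists. Between lncRNA:CR44761 and Ppa, in 11259 bp, there were 7 members with signals of 2.36 to 206.0, and 5 of them were in both lists. Of these 5, 2 members 202 bp apart, with 206.0 and 72.3, had the same candidate in each replicate, so the 5 are not all separate. The nearest coding gene to the left was RYBP, which encodes a Polycomb-associated protein that binds RING proteins. Between lncRNA:CR44363 and CG7560 there were 5, with 97.8 to 421.4, and 4 of these were in both lists. Between scyl, which encodes an inhibitor of TOR signalling, and lncRNA:CR44720 there were 5 with 77.4 to 237.2, of which 2 were in both lists. The 70507 bp between vvl and lncRNA:CR45115 held 5 with 69.4 to 160.9, and none of these was in both lists. The interval between lncRNA:CR44603 and lncRNA:CR45695 held 4 members with 364.6, 62.8, 476.5 and 422.9, of which 3 were in both lists. Its nearest coding genes were RFeSP and chinmo, a gene for a BTB zinc finger protein of neuronal timing. The interval between lncRNA:CR45303 and lncRNA:CR45693 held 4 with 57.5 to 181.9. The nearest coding gene to its left was the zinc finger gene noc. The remaining 10 intervals held 3 each. Some of them lay beside foxo, shg, 18w, ems and ppk, and others between Pgant2 and CG2772 and between tRNA:Ile-TAT-1-2 and CG13898. The rest ran from lncRNA:CR46353 to rpr, from lncRNA:CR46197 to CG6244 and from lncRNA:CR45251 to lncRNA:CR45036. The nearest coding gene left of the interval at rpr was grim, and both grim and rpr encode activators of apoptosis.

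Some members stood beside a stronger summit. Another summit of the list lay within 1 kb of 57 members, and a stronger one within 1 kb of 28. The same was not counted over the other peaks. There were 13 of 252 members with a signal under 40, against 217 of all 3531 peaks. All 13 had a stronger summit within 1 kb. The weakest was 5412 bp from Ppa at 2.36, followed by one 25615 bp from lncRNA:CR46353 at 3.21 and one 2527 bp from CheA84a at 3.23. The Ppa member overlapped the same replicate candidates, of 42.9 in replicate 1 and 38.8 in replicate 2, as a stronger member 202 bp away, whose signal was 86.0. The replicate signals and list membership of such members are thus not those of the member alone. At 18w, a member of 3.63 counted as in both lists beside one of 159.5, 200 bp away, with the same candidates. Peaks of the list had mostly 1 width. There were 222 members of 390 bp (88.1%, against 82.1% of all peaks), with a median signal of 88.6 and 54 in both lists. The 30 narrower members, of 102 to 342 bp, had a median signal of 258 and 29 in both lists.

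Members thinned out with distance from genes. Their median distance to the nearest TSS was 4746 bp (quartiles 3126 and 9016, maximum 36617), against a median of 8399 bp (quartiles 4251 and 22234) over all bases that could hold a member. Such eligible bases, in intergenic DNA more than 2000 bp from any TSS, came to 28.9 Mb, or 21.6% of the arms. There were 8.73 members per Mb of it (95% exact Poisson interval 7.68 to 9.87), against 12.8 per Mb (11.9 to 13.8) for distal genic summits in the 54.3 Mb of genic sequence as far from a TSS. These intervals cover counting error over peaks alone. Members stood at 12.6 per Mb of eligible sequence outside transposable elements and within 20 kb of a TSS, a restriction chosen after the values were seen. Distal genic summits were not recounted under that restriction. Over all eligible bases there were 15.6 members per Mb between 2 and 3 kb from a TSS and 14.3 between 3 and 5 kb. Farther out there were 9.07 between 5 and 10 kb, 8.02 between 10 and 20 kb and 1.81 (0.988 to 3.03) beyond 20 kb. The last group held 14 members with signals of 3.21 to 187.2. With annotated transposable elements taken out of the eligible bases the density was 16.8 per Mb between 2 and 3 kb and 2.18 beyond 20 kb. Peaks from each replicate's own list also thinned out, to 1.09 per Mb beyond 20 kb in replicate 1 and 0.934 in replicate 2, against 13.9 and 11.5 between 2 and 3 kb. The 3 members farthest from any TSS, all on arm 3L, were at 36617 and 34587 bp from CG43245, with signals of 118.1 and 101.2, and at 33804 bp from vvl, with 160.9. Members lay on both sides of genes, and 134 of the 252 (53.2%, interval 46.8 to 59.5%) lay upstream of the nearest TSS, against 55.4% of eligible bases.

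**Figure D3:**
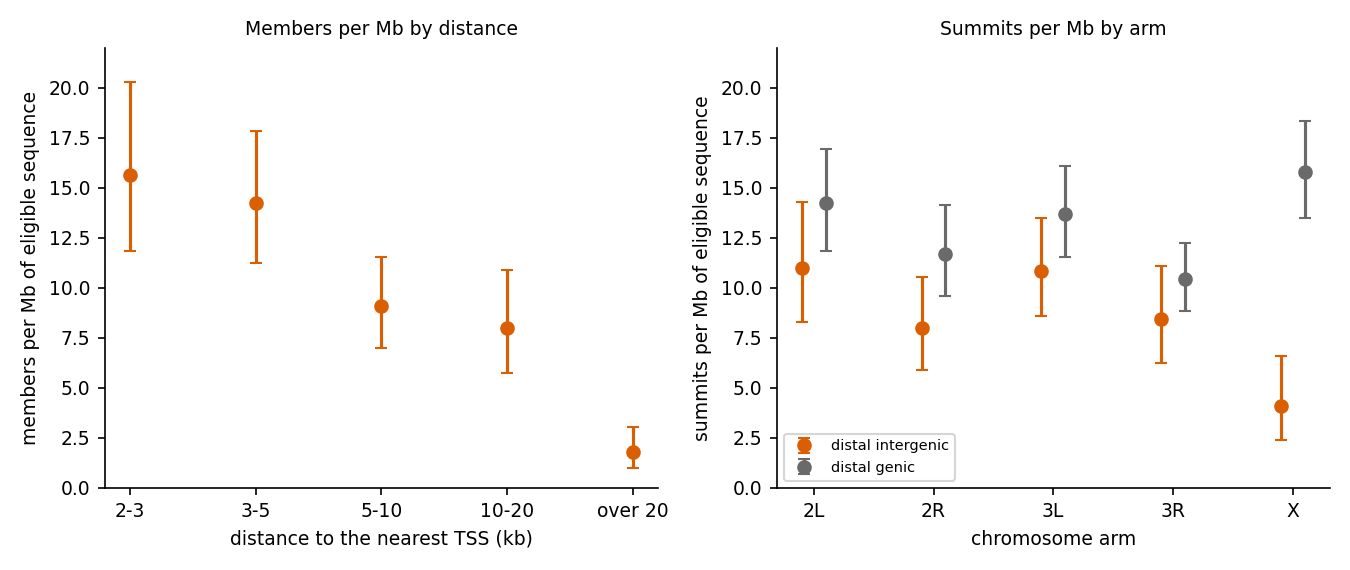
The left panel gives members per Mb of eligible sequence by distance to the nearest TSS in kb, and the right panel gives distal intergenic members and distal genic summits per Mb of their own eligible sequence on 5 arms; bars are 95% exact Poisson intervals over peaks. The density was 15.6 per Mb nearest to genes and 1.81 beyond 20 kb, and on the X it was 4.10 for members and 15.8 for distal genic summits.

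The X chromosome held few members. There were 17 on the X, or 4.10 per Mb of eligible sequence (2.39 to 6.57), against 235 on chromosomes 2 and 3, or 9.57 per Mb (8.38 to 10.9). The arms 2L, 2R, 3L and 3R had 11.0, 7.99, 10.8 and 8.42 per Mb. Distal genic summits stood the other way, with 15.8 per Mb (13.5 to 18.3) on the X and 12.3 (11.3 to 13.4) on chromosomes 2 and 3. Members made up 2.81% of all summits on the X. The order held in each replicate's own list, with 4.35 per Mb on the X and 7.94 on chromosomes 2 and 3 in replicate 1, and 1.69 and 5.50 in replicate 2. It also held over eligible sequence outside transposable elements and within 20 kb of a TSS, a restriction chosen after the values were seen, with 6.07 per Mb (3.54 to 9.72) on the X and 13.8 (12 to 15.7) on chromosomes 2 and 3. Candidates before the threshold were also sparser on the X, at 486 per Mb against 587 in replicate 1 and at 337 against 400 in replicate 2. Arm 2R had fewer candidates per Mb than the X, with 475 in replicate 1 and 308 in replicate 2, and 7.99 members per Mb. On 2R, 3.16 of 6.14 eligible Mb lay outside transposable elements and within 20 kb of a TSS. The X had 2.80 of 4.14 Mb. Candidates were not counted over that restricted sequence. No control library was analysed, the sex of the embryos was not collected per the labels, and the part of read coverage in these densities was not tested. The 17 members had signals of 59.2 to 175.0, and 7 were in both lists. The strongest was 6967 bp from lncRNA:CR44886 and had 113.5 in replicate 1 and 57.0 in replicate 2. Its nearest coding genes on either side were dnc and Myc. One member with a signal of 128.7 lay 2462 bp from ph-d, in the interval shared with ph-p, the paired Polyhomeotic genes of Polycomb repressive complex 1. Chromosome 4 held no member in 0.176 Mb of eligible sequence, which allows up to 21.0 per Mb (upper exact Poisson bound). The longer list and replicate 2's own list each had 2 distal intergenic summits there, or 11.4 per Mb (1.38 to 41.0), and replicate 1's own list had none.

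No member had its summit in an annotated transposable element. The count was 0 of 252, which allows a share of up to 1.45% (upper exact Clopper-Pearson bound), against 12.4% of eligible bases. It was also 0 of 696 distal genic summits and 4 of all 3531. In the longer list 1 of 343 distal intergenic summits lay in such an element. Among distal intergenic candidates before the threshold the share was 2.91% of 16444 in replicate 1 and 1.36% of 11263 in replicate 2, also below that of the eligible bases. The sources used here do not say whether reads that match several places were kept, and the part of such reads in these counts was not tested. Windows with more than 50% of their bases in lower case, which marks repeats in the genome file, made up 12.7% of members and 12.2% of distal genic summits, against 20.8% of all eligible windows of 101 bp.

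Base composition at the summit was a feature that the choice of members did not use. The windows printed above had from 18.8 to 55.4% GC, and over all 252 members the mean was 35.2% with an SD of 10.9 over windows (median 32.7%). Windows centred 500 bp to either side of the same summits had 41.1% (SD 9.76, n = 504), and all eligible windows had 41.0%. The low GC was narrow. In windows of 51 bp, the mean was 35.1% at the summit, 46.7% at 200 bp to its left, 47.4% at 200 bp to its right, and 41.3% at 1000 bp to either side. The summits were thus poor in GC between shoulders richer in GC than the eligible sequence. The centre had less GC than either shoulder in the replicates' own lists too, with 33.3% at the summit against 45.7 and 46.1% at the shoulders in replicate 1, and 37.8% against 46.4 and 46.1% in replicate 2. Distal genic summits had 34.4% at the summit, and 44.2 and 44.9% at the shoulders. Summits within 500 bp of a TSS had 36.2% at the centre, 42.5 and 42.8% at the shoulders and 44.3 and 43.9% at 1000 bp. No test was run across classes.

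**Figure D4:**
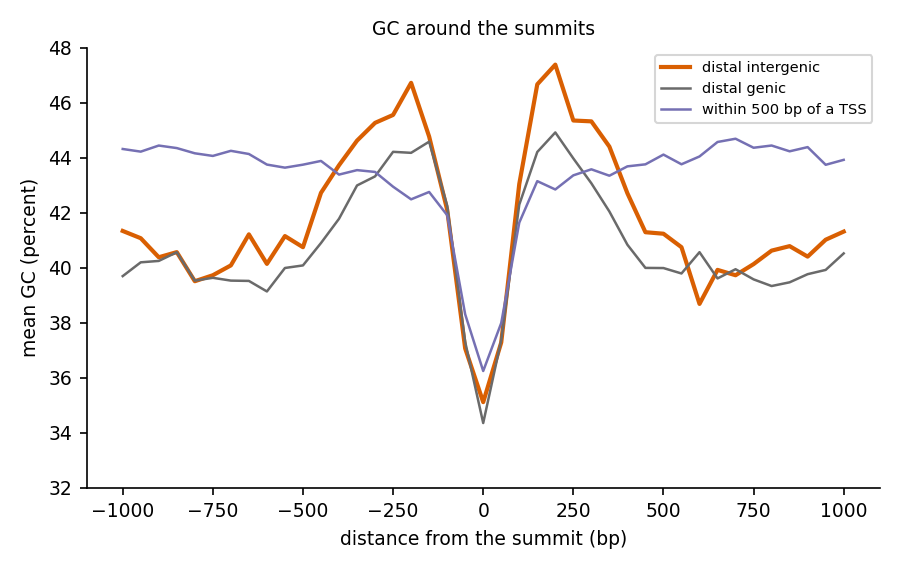
Mean GC percent in windows of 51 bp, in steps of 50 bp from 1000 bp left to 1000 bp right of the summit, for distal intergenic members, distal genic summits and summits within 500 bp of a TSS; the y axis starts at 32%. The members' curve is at 35.1% at the summit and at 46.7 and 47.4% at 200 bp to either side.

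Stronger members had lower GC, as did stronger summits of the other classes. With the members split by signal into 4 groups of 63, the median GC was 28.7% in the strongest group, 31.7 and 32.7% in the middle groups and 41.6% in the weakest. The 12 strongest had a median of 26.2% and a range of 16.8 to 39.6%. The 28 members with a stronger summit within 1 kb had a median of 46.5%, against 31.7% in the 224 without, and the 13 members with a signal under 40 had 40.6 to 59.4%. The dip at the centre was seen in the 224, with 34.2% at the summit and 47.5 and 47.8% at the shoulders. It was not seen in the 28, with 42.4% at the summit and 40.6 and 44.3% at the shoulders. The longest run of A and T had a median of 9.5 bp at members, against 10 bp at distal genic and 9 bp at all other summits, and 8 bp in the members' flanks and in all eligible windows. A run of 20 bp or more, a length chosen after the values were seen, stood in 16 member windows (6.35%), in 5.03% of distal genic and 6.04% of promoter summits, in 3.37% of flanks and in 2.65% of eligible windows.

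The ratio between the replicates varied with GC. Across 251 members, which share 2 libraries, the log2 ratio of replicate 1 over replicate 2 fell with GC, with Pearson's r of -0.36 and Spearman's rho of -0.31. The same description over other classes gave Pearson's r of -0.38 for 688 distal genic summits and -0.46 for 1762 summits within 500 bp of a TSS. At 91 members with under 30% GC the median log2 ratio was 0.34 and replicate 1 was higher in 76. At 54 members with 45% GC or more it was -0.12, and replicate 1 was higher in 23. These 2 limits were chosen after the values were seen. The site 9184 bp from shg, the gene of E-cadherin, with 45.5% GC, had 49.9 in replicate 1 and 159.0 in replicate 2, the lowest ratio of all (log2 -1.67). Next were the lncRNA:CR45742 site with 27.7 in replicate 1 and 79.5 in replicate 2, and the site near croc, which encodes a forkhead factor of the embryonic head, with 32.6 and 84.0. At the other end, a CG43245 member with 18.8% GC had 116.7 in replicate 1 and 44.4 in replicate 2 (log2 1.39). The CG17570 member had 86.2 and 33.3, and another CG43245 member had 97.8 and 37.8. Members in the list of replicate 1 alone had a median GC of 32.7%, those in the list of replicate 2 alone 40.6%, those in both 29.7% and those in neither 32.7%. Base composition differed between the replicate lists, and the part of library preparation or sequencing in it was not tested.

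**Figure D5:**
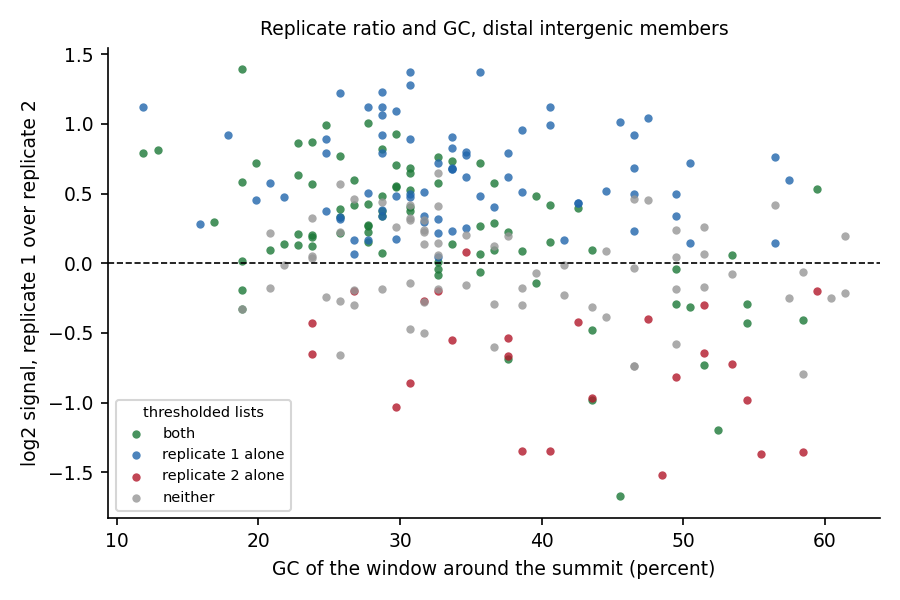
Each point is 1 of 251 members, with the GC percent of its 101 bp window on the x axis and the log2 ratio of candidate signal, replicate 1 over replicate 2, on the y axis; colours give the thresholded lists and the dashed line marks equal signals. Points above the line prevail at low GC, where replicate 1 was higher in 76 of 91 members, and points below it are more frequent at 45% GC or more.

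Words and motifs were counted on both strands, and a match is a description of the letters in the window. Words in at least 1% of windows at the 3279 other summits were ranked by their share there over their share in those summits' flanks. The word ATACAGA, with the reverse complement TCTGTAT, came first by this ratio (2.91). It was not the commonest word, and 99 of these summits held it. Among members 6 held it (2.38%, interval 0.879 to 5.11%), against 3.02% of the other summits, on which it was ranked, 1.19% of the members' flanks and 1.43% of eligible windows. Of these 6, the strongest was the CG46467 and Glut4EF site, with a signal of 201.4, and the lncRNA:CR44150 window held it at 2 places. Of the 24 motifs searched, those named here were chosen after their values were seen. A few AT-rich motifs were more frequent in members than in flanks and eligible windows, without a test. Some stood near their share at the other 3279 summits, and others stood above it. TATAAA, the letters of a TATA box, stood in 19.4% of members, 19.3% of other summits, 12.1% of flanks and 12.2% of eligible windows. AGATAA, a form of the site of GATA factors, stood in 10.3% of members, 7.35% of other summits, 5.16% of flanks and 5.72% of eligible windows. The Caudal-type word TTTATG stood in 18.3% of members (interval 13.7 to 23.6%), 12.8% of other summits, 14.9% of flanks and 11.7% of eligible windows. The Hunchback-type run TTTTTTA stood in 12.3%, 12.8%, 5.95% and 7.61% of these sets, and a run of 7 A on either strand, AAAAAAA, in 15.9%, 13.0%, 9.33% and 8.97%. These motifs are rich in A and T, and the member windows were poorer in GC than flanks and eligible windows. Some other motifs stood closer to flanks and eligible windows, with GAGAG in 13.5% of members, 13.0% of other summits, 12.1% of flanks and 11.2% of eligible windows. TAATTA, the core of many homeodomain sites, stood in 8.73%, 8.91%, 7.54% and 7.17%. The longer repeat GAGAGAGA, not rich in A and T, stood in 2.38% (6 members), 1.28%, 0.794% and 0.447%. The Dorsal-type word GGGAAANC stood in 2.38% (6 members), 0.884%, 2.58% and 1.81%. TATATATA, of A and T alone, stood in 1.59% (4 members), 2.20%, 2.58% and 1.30%, so members were below flanks and other summits. The E-box CANNTG was in 34.9% of members, 34.7% of other summits, 41.1% of flanks and 37.3% of eligible windows. The promoter motif TATCGATA, the DRE, was in 0 of 252 members, which allows up to 1.45%, and in 2.68% of summits within 500 bp of a TSS.

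Genes for developmental transcription factors stood nearest to 25 members. Over the homeobox, bHLH and other developmental transcription factor lists together, of which 257 of 263 symbols were matched, these members lay nearest to 18 genes. They were 9.92% of members (interval 6.52 to 14.3%), against 4.10% of eligible bases, and 5.02% of eligible bases outside transposable elements and within 20 kb of a TSS. The density was 21.1 per Mb (13.7 to 31.2) in the eligible sequence nearest to these genes, against 8.73 per Mb in all of it. In the replicates' own lists the share was 8.45% in replicate 1 and 7.64% in replicate 2, and it was 9.77% of distal genic summits. The lists were chosen with results of these data known, so the share is a description. These 25 members were not strong, with a median signal of 85.8, against 91.6 in the other 227, and 5 of the 25 were in both replicate lists, while 9 were in neither.

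The homeobox genes accounted for 15 of these members (5.95%, against 2.34% of eligible bases and 0.862% of distal genic summits), and for 6.10% of distal intergenic summits in replicate 1's own list and 4.17% in replicate 2's. Of these genes 3 had more than 1 member. The gene vvl, which encodes a POU homeodomain factor of trachea and nervous system, had 3 with signals of 160.9, 85.8 and 73.4. The head gap gene ems had 3 with 144.6, 96.5 and 84.4. Dr, a gene of the dorsal neural ectoderm that another list also holds, had 2 with 71.0 and 55.1. The strongest of these, at vvl, had 103.2 in replicate 1 and 54.7 in replicate 2 and was in the list of replicate 1 alone. The other homeobox genes, with 1 member each, were E5, en, eyg, hth, inv, mirr and slou. The neighbouring genes en and inv, which encode engrailed-class factors of the posterior compartment, had members of 75.9 and 72.5. The member at mirr, an Iroquois-complex gene, had 110.5, with 55.8 in replicate 1 and 52.2 in replicate 2, and it was in both lists.

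Other developmental transcription factor genes were nearest to 12 members (4.76%, against 1.68% of eligible bases and 7.47% of distal genic summits). The share was 2.35% in replicate 1's own list (5 of 213) and 2.78% in replicate 2's (4 of 144), close to the 2.28% of eligible bases outside transposable elements and within 20 kb of a TSS. The foxo locus had 3, at 318.4, 127.2 and 11.4, the last of which had a stronger summit 205 bp away. Between slp1 and slp2, neighbouring forkhead genes of segmentation, the slp2 member had 257.3, with 144.9 in replicate 1 and 110.1 in replicate 2, and the slp1 member had 84.1, with 39.4 and 44.7. The Doc2 member, in the cluster of T-box genes of the dorsal ectoderm, had 231.3, with 122.7 in replicate 1 and 107.5 in replicate 2. The foxo, slp2 and Doc2 members named first were in both lists, and the slp1 member was in neither. SoxN, D, croc and esg had 1 member each, with 122.8, 92.4, 120.3 and 68.9. No member lay nearest to a bHLH gene, and those genes had 0.130% of eligible bases; replicate 2's own list had 1 such summit.

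Other gene lists held few members. Signalling genes were nearest to 4 (1.59%, against 0.739% of eligible bases and 2.01% of distal genic summits). In replicate 1's own list the share was 0.939% (2 of 213) and in replicate 2's 1.39% (2 of 144), against 0.999% of eligible bases outside transposable elements and within 20 kb of a TSS. The genes of the 4 members were ptc, the Hedgehog receptor gene, with 182.8 and 69.3, wg, which encodes a Wnt ligand, with 163.1, and ths, which encodes a fibroblast growth factor ligand, with 91.3. The stronger ptc member had 105.0 in replicate 1 and 80.0 in replicate 2. Cell adhesion and guidance genes were nearest to 8 (3.17%, against 1.51% of eligible bases and 2.59% of distal genic summits). The share was 1.88% in replicate 1's own list and 3.47% in replicate 2's, against 1.89% of the same restricted sequence. The 8 comprised 3 at shg of 203.0, 112.7 and 66.0, 3 at the Toll-family gene 18w of 159.5, 130.5 and 3.63, and 1 each at robo2 and Tollo. The shg members had the higher signal in replicate 2, but 2 of the 3, which lay 208 bp apart, shared the same candidate in each replicate, so that this rests on 2 candidates a replicate. Chemosensory genes by prefix, which here includes the ppk channel genes, were nearest to 3 (1.19%, against 1.72%), and to 1.88% in replicate 1's own list and 2.08% in replicate 2's. The strongest of the 3 was at ppk with 129.6. Cuticle protein genes were nearest to 2 (0.794%, against 0.267% of eligible bases and 0.406% of the same restricted sequence), the stronger at Cpr65Eb with 96.4. No member lay nearest to a heat shock gene or to a germline or piRNA gene of the lists. Those lists had only 0.0474% and 0.372% of eligible bases, and 0 of 696 distal genic summits lay nearest to either.

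By kind of gene, 161 members (63.9%) were nearest to a protein-coding gene, against 83.8% of distal genic summits and 66.7% of eligible bases. A non-coding RNA gene was nearest to 86 (34.1%), against 14.5% of distal genic summits and 25.7% of eligible bases. The share was 33.3% in replicate 1's own list but 25% in replicate 2's (36 of 144), against 28.7% of eligible bases outside transposable elements and within 20 kb of a TSS. Members nearest to non-coding RNA genes had a median signal of 87.7 and 20 of 86 were in both lists, against 93.6 and 59 of 161 for those nearest to protein-coding genes. Pseudogenes were nearest to none, against 0.431% of distal genic summits, 6.16% of eligible bases and 3.15% of the same restricted sequence. Transfer RNA genes were nearest to 5 members (1.98%, interval 0.647 to 4.57%). The share was 1.15% of distal genic summits, 0.723% of eligible bases and 1.03% of the same restricted sequence. It was 3.29% of distal intergenic summits in replicate 1's own list (7 of 213) and 4.17% in replicate 2's (6 of 144). These 5 members were chosen for mention after their values were seen, and had signals of 277.8, 276.8, 193.1, 161.8 and 91.0. The 4 stronger ones were in both lists.

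The limit of 2000 bp passed through a continuous range. Just inside it were members at 2020 bp from CG1888 with a signal of 131.6, at 2036 bp from Cipc with 71.3 and at 2052 bp from CG43245 with 140.9. Just outside were intergenic summits at 1995 bp from hry with 93.4, at 1969 bp from CG32645 with 93.5 and at 1960 bp from CG12540 with 91.9.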

How the data were processed

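Binding of CG32767-eGFP was assayed in 2 biological replicates of whole embryos. The authors deposited peak lists on dm6, per the labels: thresholded on IDR and ranked, for each replicate and for both combined. The sources used here do not give the aligner, the peak caller or the control handling. The signal the authors deposited for each peak, a score in the peak caller's own units, was used as given and ranks peaks within 1 list. Ranked series-level lists were not used here. Python 3.11.15 was used with scipy 1.17.1, numpy 2.4.6, pandas 2.3.3 and matplotlib 3.10.9. The annotation was Ensembl 115 (BDGP 6.54), with 18164 arm genes after transposable elements were left out and 23581 distinct TSSs; the sequence was RefSeq's dm6. Eligible bases and 284358 windows of 101 bp tiled over them gave the comparison shares, so no random placement was used. The replicate signal is that of the strongest overlapping candidate. Classification and word ranking were tried on simulated data. With 1 group of 2 replicates no test was run; intervals are 95% exact Clopper-Pearson or Poisson and cover counting error only. The members, gene lists and motifs were chosen with earlier results of these data known. Genes were named for the strongest, weakest, farthest and edge members, the extreme replicate ratios, intervals with 3 or more members and the strongest member of each gene list; other names were chosen after their values were seen. Alternatives were the longer list, the stronger 50%, each replicate's list, limits of 1000 and 5000 bp, RefSeq genes, other overlap rules and other windows.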

Additional observations from a re-analysis of the deposited data

How the results depend on the processing

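Each value was recomputed under the other choices, and none had a test. Over the replicates' own lists, replicate 2's giving 144 members and replicate 1's 213, the share of summits that were distal intergenic was 5.49 and 7.41%, the median rank percentile 46.7 and 38.2, the median distance 4352.5 and 4683 bp, the share nearest to a protein-coding gene 70.8 and 63.4%, the density 4.99 and 7.38 per Mb, the mean GC 38.8 and 33.8% and the share with ATACAGA 4.17 and 2.35%. With limits of 1000 and 5000 bp the share of summits was 9.46 and 3.37% and the median distance 3706.5 and 9340 bp, and with 5000 bp the density was 5.98 per Mb and ATACAGA stood in 0.840%. The authors' longer list gave 11.9 members per Mb and 25.4% of them in both replicate lists. The stronger 50% of peaks gave 3.57 per Mb, 71.8% in both lists and ATACAGA in 3.88%. Reciprocal overlap of 50% left 26.6% in both lists, windows of 100 bp to either side held ATACAGA in 4.37%, and eligible sequence outside transposable elements within 20 kb of a TSS, chosen after seeing the data, gave 12.6 per Mb. The share in both lists thus depended on the strength of the peaks and on the overlap rule, and the cause was not tested. RefSeq genes, and a signal of at least 40, which was also chosen after seeing the data and run for all but the density and the protein-coding share, moved no value by more than the spread used here, which was 1 SD between the replicate lists or, for the share in both lists, its binomial interval. No paired analysis was possible because there is 1 group and no test. Depth is unknown, so weak members cannot be set against a detection limit.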
